A study of Mus musculus with 8 samples.

Results

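Müller glia are the radial glia that span the whole thickness of the retina, and 10 genes that mark them were followed here in whole retinas of adult mice in which Rbfox2, an RNA-binding regulator of alternative splicing, was downregulated. The members were chosen by name as the rows of the gene table for Glul, Kcnj10, Aqp4, Sox9, Vim, Gfap, Apoe, Dkk3, Clu and Abca8a, 10 of 17500 genes in the table. All 10 were among the 16797 genes that passed the filter on low counts. The question was whether the glial genes of the retina differed between Rbfox2 KD and control animals.

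Retinas came from 8 mice, 4 control and 4 labelled Rbfox2 KD, each on the C57BL/6J background and 6 months old, and poly(A) RNA of the whole retina was sequenced as 1 library per mouse. The Rbfox2 KD animals were Rbfox2 fl/fl mice that carried a tamoxifen-activated Cre transgene. By the study's account the line was chosen for Cre activity in ganglion, amacrine and probably horizontal cells, and whether Müller glia recombined was not tested here. The controls were heterozygous Rbfox2 fl/+ mice. The labels name tamoxifen and 4 months for each of the 8 mice, the controls too. The methods describe a course of some days in adult mice with Cre, given as tamoxifen or as corn oil vehicle, with the Rbfox2 KD retinas taken 4 months later, and they do not state whether the controls carried Cre or what they were given; the effects of genotype, Cre and tamoxifen cannot be told apart. The mice are named below by the identifiers in their labels: M833, M894, M896 and M898 were controls, and M893, M901, M902 and M909 were Rbfox2 KD.

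Müller glia take up the glutamate and potassium that neurons release, move water between the retina and its vessels, and supply neurons with glutamine and lipids. Glul makes glutamine from glutamate, Kcnj10 (Kir4.1) carries potassium and Aqp4 carries water at the endfeet, Sox9 is a transcription factor of the glial lineage, and Vim and Gfap build intermediate filaments. Apoe and Clu are secreted apolipoproteins, Dkk3 is a secreted glycoprotein of the Dickkopf family and Abca8a is an ATP-binding cassette transporter. Gfap is known to increase in Müller glia when the retina is damaged. None of the 10 is unique to Müller glia: Gfap and Aqp4 are also made by astrocytes, Apoe by microglia and pigment epithelium, Dkk3 by some retinal neurons, and Vim by vascular and other non-neuronal cells. In a whole retina, fewer cells of a type and less RNA per cell cannot be told apart.

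The libraries held 160630226 to 211283591 gene counts each, so that 3 counts corresponded to 0.0142 to 0.0187 CPM (gene counts scaled to the library total). Rbfox2 itself lay at 144 to 157 CPM in the controls and 53.6 to 59.4 CPM in the Rbfox2 KD retinas. Some libraries stood apart. M901 and M902, both Rbfox2 KD, held 1440 and 1739 CPM of Xist, the RNA that coats the inactive X chromosome, against 1.71 to 2.22 CPM in the other 6, and lay apart on the first principal component of all genes, which carried 40.5% of the variance; M909 lay apart on the second, which carried 19.2%. The labels do not give the sex of the mice. M909 also held 81.7 CPM summed over 7 surface epithelium markers, against 2.21 to 8.56 CPM in the others. The 11 markers of pigment and ciliary epithelium summed to 254 CPM in M898 and 182 CPM in M894, both controls, 162 CPM in M909 and 51.9 to 111 CPM in the other 5. Their part in the differences below was not tested, and values without some of these libraries stand beside the member results.

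Across the 10 genes the differences between groups were small. The median log2 fold change, Rbfox2 KD against control, was -0.07 over the members and 0.0016 over all 16797 genes tested, with 6 members lower and 4 higher. No member passed FDR 0.05 in the quasi-likelihood test of edgeR (p-values adjusted by Benjamini-Hochberg over all genes), a threshold that 0.0655% of genes passed. At an unadjusted p under 0.05, 3 of the 10 members were lower (Glul, Clu and Dkk3) and none was higher, where 6.87% of all genes were lower and 6.42% higher by this rule. The levels of the Rbfox2 KD mice lay wholly below those of the controls for 1 member, Glul, and wholly above for none, against 3.39% and 3.64% of all genes. By other tests of the same counts, edgeR's likelihood ratio test (0.976% of genes called), limma-voom and limma-trend each called no member, and DESeq2, which called 3.07% of the genes it adjusted, called Glul alone. The count at an unadjusted p under 0.05 went from 3 to 4 without M833, where Abca8a joined as higher, and to 1, Glul, without any 1 of M894, M898 and M901, without M901 and M902 together, without M898 and M909 together, or with 1 surrogate variable in the model.

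**Figure D1:**
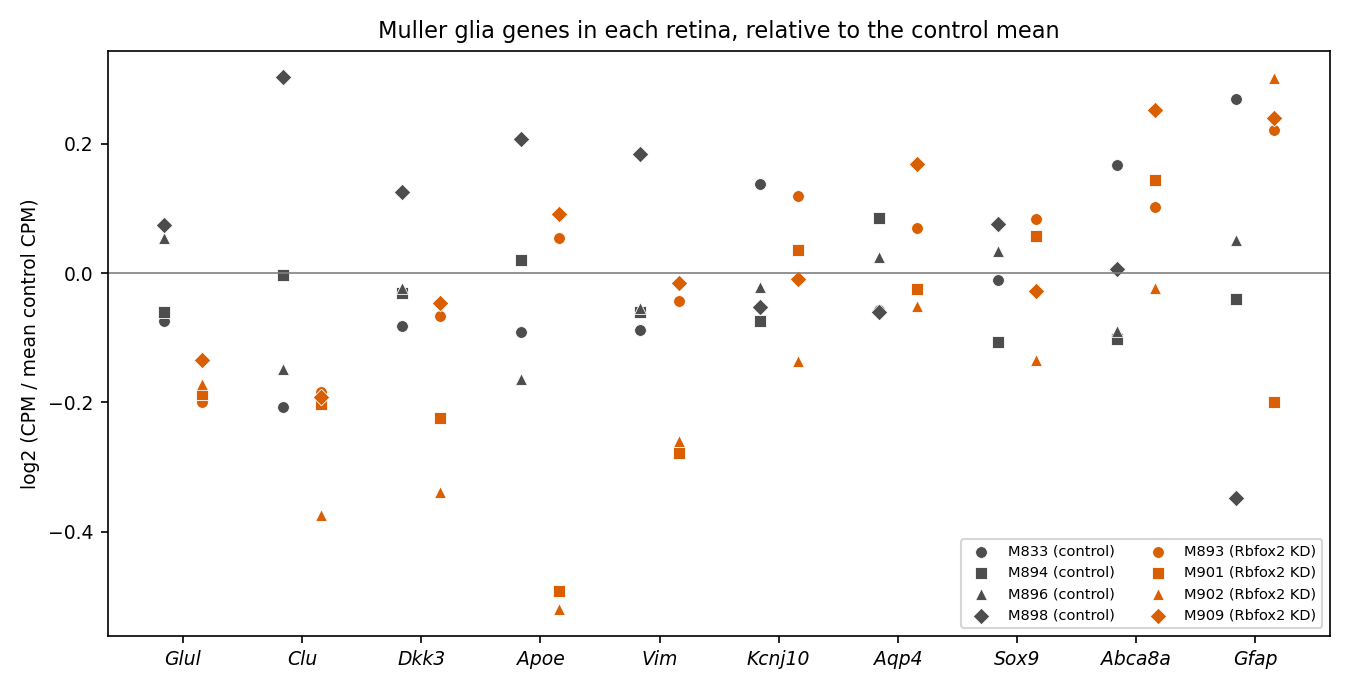
Level of each of the 10 genes in each retina, as log2 of its CPM over the mean control CPM, with 4 control mice in grey and 4 Rbfox2 KD mice in orange and 1 symbol per mouse. For Glul every orange symbol lies below every grey one, whereas for Apoe and Vim M901 and M902 lie low and M893 and M909 lie among the controls.

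The promoter stretches of 3 members are shown because these genes span the range of patterns described below: Glul differed most evenly between the groups, Kcnj10 hardly differed, and Apoe varied most among the mice. Each is the 250 bases before the RefSeq start in GRCm38.p6, read 5′ to 3′ on the strand of the gene, at chr1:153899679-153899928 on the plus strand for Glul, chr1:172340960-172341209 on the plus strand for Kcnj10 and chr7:19699189-19699438 on the minus strand for Apoe. Capitals mark matches to any of 5 motifs that were searched on both strands.
Glul: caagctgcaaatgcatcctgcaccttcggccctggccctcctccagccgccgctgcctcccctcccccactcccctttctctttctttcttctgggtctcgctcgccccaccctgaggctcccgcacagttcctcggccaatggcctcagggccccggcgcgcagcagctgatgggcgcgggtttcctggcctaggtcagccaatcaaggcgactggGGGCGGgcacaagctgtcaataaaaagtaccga
Kcnj10: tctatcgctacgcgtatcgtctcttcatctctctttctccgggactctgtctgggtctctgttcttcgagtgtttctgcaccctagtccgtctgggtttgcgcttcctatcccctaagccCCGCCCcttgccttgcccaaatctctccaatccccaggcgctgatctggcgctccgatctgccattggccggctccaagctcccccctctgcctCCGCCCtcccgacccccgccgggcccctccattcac
Apoe: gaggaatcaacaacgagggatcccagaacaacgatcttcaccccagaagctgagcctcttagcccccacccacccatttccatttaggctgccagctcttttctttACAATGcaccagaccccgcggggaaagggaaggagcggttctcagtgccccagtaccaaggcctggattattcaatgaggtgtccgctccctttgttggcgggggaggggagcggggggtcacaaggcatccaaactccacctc

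The GC box (GGGCGG), the motif of the Sp1 family, was found once in the Glul stretch, 33 bases before the start, and 2 times on the opposite strand in that of Kcnj10, 130 and 36 bases before the start; 32.7% of 32841 promoters of the same length hold it. Apoe held 1 match to the core ACAATG bound by Sox factors, 144 bases before the start, and 10.7% of the promoters hold it. The other motifs were the TATA box (TATAAA, in 12.4% of the promoters), the AP-1 site (TGANTCA, in 6.75%) and the E-box of the clock (CACGTG, in 6.02%), none of which was found in these 3 stretches; Vim held a TATA box 32 bases and Abca8a an E-box 136 bases before the RefSeq start, in windows that overlap annotated exons of these genes, and Gfap held none of the 5. The Glul window also overlaps annotated exons, those of Mir8114 and Teddm2, and the Gfap window lies inside the annotated span of Gfap. No annotated Glul transcript holds the 50 bases after its RefSeq start. No 2 matches overlapped. A match is a description of the letters and not of binding.

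Glul, the glutamine synthetase of Müller glia and the member with the lowest p, was measured at 3214, 3245, 3513 and 3565 CPM in M833, M894, M896 and M898, and at 2946, 2973, 3003 and 3083 CPM in M893, M901, M902 and M909. All 4 Rbfox2 KD retinas lay below all 4 controls, and the means were 3384 CPM ± 180 (SD, n = 4) in the controls and 3002 CPM ± 59.3 (SD, n = 4) in the Rbfox2 KD mice, 88.7% of the control mean. The log2 fold change was -0.17 (SE 0.048, 95% interval -0.28 to -0.066), with an unadjusted p of 0.00496 and an adjusted p of 0.221 in edgeR's quasi-likelihood test, 374th of all genes by p. The exact two-sided permutation test over the 70 groupings of 8 mice gave p = 0.0286. That is the smallest p that 4 against 4 mice can give, and any gene whose groups do not overlap gets it. DESeq2 gave an adjusted p of 0.0107. Glul also varied the least of the 10 genes within a group, with an SD of 0.058 on the log2 scale, against a median of 0.10 over all genes.

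The Glul difference kept its size when M901 and M902, or M898 and M909, were left out. The log2 fold change was -0.17 without M901 and M902 (unadjusted p = 0.0247, adjusted p = 0.757, edgeR's quasi-likelihood test). It was -0.16 without M898 and M909 (unadjusted p = 0.0427, adjusted p = 0.339, same test). These pairs were not left out together. Other annotated genes share sequence with Glul. Mir8114 overlaps 93 bases of its exons on the same strand and held 17 to 37 counts per library, and 116 bases of its exons overlap Teddm2 on the opposite strand, so that without a stated strand setting a small share of reads cannot be assigned between them.

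Clu, clusterin, a secreted chaperone and apolipoprotein, had the largest difference of the 10 on the log2 scale, and 1 control carried much of it. The controls held 632, 729, 659 and 900.97 CPM in M833, M894, M896 and M898, and the Rbfox2 KD mice held 643, 635, 563 and 639 CPM in M893, M901, M902 and M909. M898 was far above every other mouse, and the lowest control lay below 3 of the 4 Rbfox2 KD mice. The log2 fold change was -0.24 (SE 0.10), with an unadjusted p of 0.0426 and an adjusted p of 0.363 in edgeR's quasi-likelihood test, and it was -0.12 without M898. The exact permutation test of Clu gave p = 0.114.

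Dkk3, secreted by Müller glia and related to the Wnt antagonists of the Dickkopf family, lay at 1124, 1164, 1170 and 1298 CPM in M833, M894, M896 and M898 and at 1135, 1018, 940 and 1152 CPM in M893, M901, M902 and M909. M901 and M902 were below all controls, whereas M893 and M909 were within their range. The log2 fold change of -0.16 (SE 0.072, unadjusted p = 0.0461, adjusted p = 0.370, edgeR quasi-likelihood test) was -0.06 without M901 and M902. The exact permutation test of Dkk3 gave p = 0.0857.

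Apoe, the main lipid carrier that glia secrete, showed the widest spread of the 10, with an SD of 0.26 on the log2 scale within groups. The controls held 831, 897.9, 790 and 1023 CPM in M833, M894, M896 and M898, and the Rbfox2 KD mice held 920, 630, 618 and 944 CPM in M893, M901, M902 and M909. The 2 libraries with high Xist were the lowest of all 8, and the other 2 Rbfox2 KD mice lay within the controls. With all mice the log2 fold change was -0.19 (SE 0.15, adjusted p = 0.614, edgeR quasi-likelihood test); without M901 and M902 its sign turned to 0.07.

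Vim, vimentin, the filament protein that Müller glia hold at all times, was measured at 138, 141, 141 and 167 CPM in M833, M894, M896 and M898 and at 142, 121, 123 and 145 CPM in M893, M901, M902 and M909. M901 and M902 were the lowest and M898 the highest, and M893 and M909 lay among the controls. The log2 fold change of -0.14 (SE 0.078, adjusted p = 0.449, edgeR quasi-likelihood test) was -0.03 without M901 and M902, -0.08 without M898 and -0.19 without M909 (unadjusted p = 0.0394 in the last, edgeR quasi-likelihood test).

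**Figure D2:**
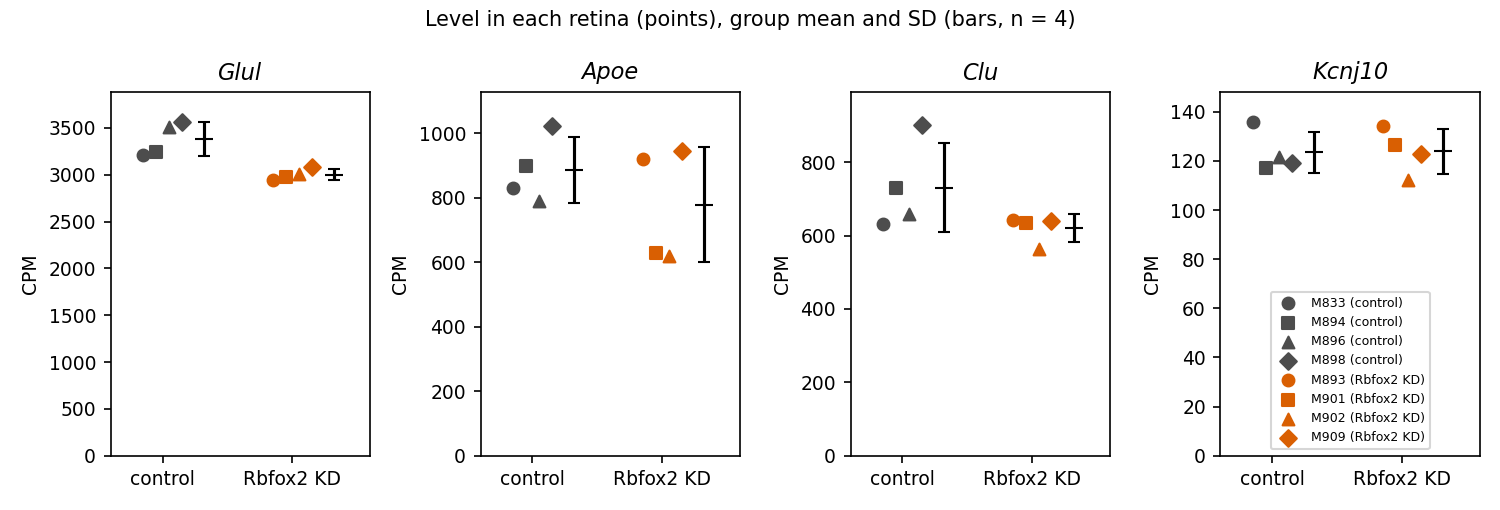
CPM of Glul, Apoe, Clu and Kcnj10 in each retina (points, 1 symbol per mouse) with the mean and SD of each group of 4 mice (black bars), on axes that start at 0. The groups are apart for Glul, 2 Rbfox2 KD mice are low for Apoe, 1 control is high for Clu, and the groups overlap for Kcnj10.

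Kcnj10 and Aqp4, the potassium and water channels of the glial endfeet, did not pass the test. Kcnj10 lay at 136, 117, 122 and 119 CPM in M833, M894, M896 and M898 and at 134, 127, 112 and 123 CPM in M893, M901, M902 and M909, and the groups covered nearly the same range. Its log2 fold change was 0.01 (95% interval -0.13 to 0.14, adjusted p = 0.980, edgeR quasi-likelihood test), and the sign changed with the normalization. Aqp4 lay at 163, 180, 172 and 162 CPM in the 4 controls, in the same order of mice, and at 178, 166, 163 and 190 CPM in the Rbfox2 KD retinas. Its groups overlapped, with the highest value in M909, and its log2 fold change was 0.04 (95% interval -0.08 to 0.16, adjusted p = 0.765, edgeR quasi-likelihood test). It was 0.12 without M901 and M902, 0.12 with 1 surrogate variable (unadjusted p = 0.0761 and 0.0501, edgeR quasi-likelihood test), and -0.02 without M898 and M909.

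Sox9, the transcription factor of the set, was likewise similar in both groups, at 33.7, 31.5, 34.7 and 35.8 CPM in M833, M894, M896 and M898 and at 35.9, 35.3, 30.9 and 33.3 CPM in M893, M901, M902 and M909. The Rbfox2 KD mice spanned the controls on both sides, and the log2 fold change was -0.0028 (95% interval -0.13 to 0.13, adjusted p = 0.989, edgeR quasi-likelihood test), with a sign that turned in several fits.

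Abca8a, a lipid transporter, and Gfap were the 2 members with the largest positive values, and neither passed the test. Abca8a lay at 291, 242, 244 and 261 CPM in M833, M894, M896 and M898 and at 279, 287, 255 and 309 CPM in M893, M901, M902 and M909, with a log2 fold change of 0.12 (95% interval -0.04 to 0.28, adjusted p = 0.489, edgeR quasi-likelihood test) that was 0.18 without M901 and M902 and 0.08 without M909. The highest value was in M909, and the second highest was in a control. Gfap, the filament protein that marks reactive glia, lay at 11.03, 8.90, 9.48 and 7.19 CPM in the controls and at 10.7, 7.97, 11.3 and 10.8 CPM in the Rbfox2 KD mice. Its highest control lay above 3 of the 4 Rbfox2 KD mice, and its interval was wide, -0.16 to 0.46 around 0.15 on the log2 scale (adjusted p = 0.670, edgeR quasi-likelihood test). Leaving out 1 mouse moved this value between 0.05, without M898, and 0.25, without M833 or M901, and it was 0.23 without M901 and M902.

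**Figure D3:**
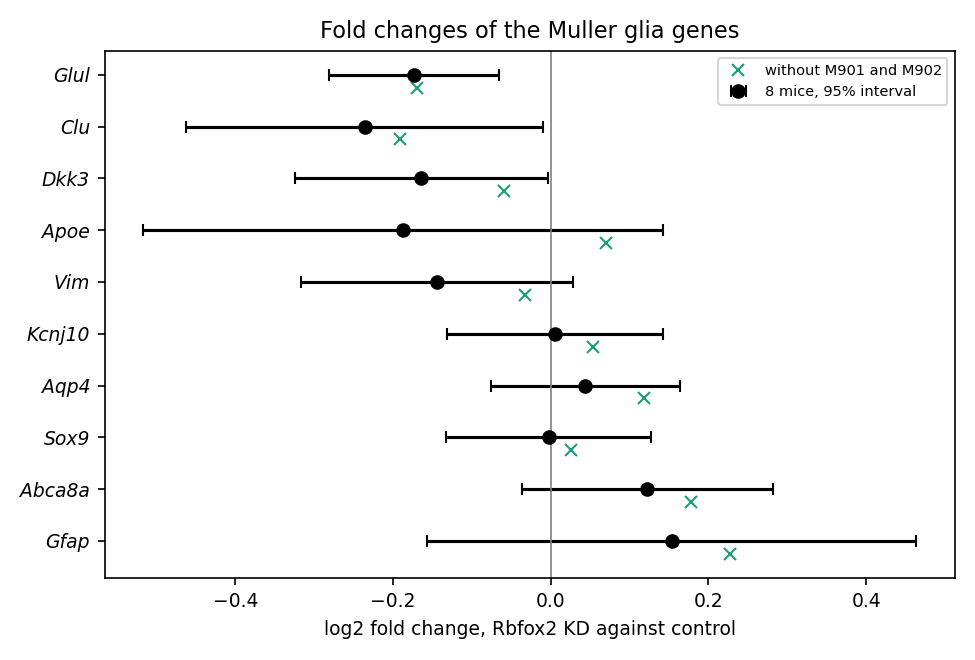
Log2 fold change of each member, Rbfox2 KD against control, with all 8 mice (black points, bars are 95% intervals) and without M901 and M902 (green crosses). Glul stays near -0.17 in both, whereas Apoe moves from -0.19 to 0.07.

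Seen by mouse, M898 held the highest level of 5 of the 10 genes (Glul, Vim, Apoe, Dkk3 and Clu) but the lowest of 2 (Aqp4 and Gfap), and M902 held the lowest level of 5 but the highest of 1 (Gfap). Apoe, Dkk3 and Vim lay nearest to the mean standardized profile of the members, at root mean square differences of 0.370, 0.415 and 0.483 SD units, and Gfap lay farthest, at 1.43. The median member, relative to the mean of the controls on the log2 scale, was 0.08 in M898 and -0.19 and -0.15 in M901 and M902, while M893 and M909, the other 2 Rbfox2 KD mice, were at 0.06 and -0.01. Without M901 and M902 the median log2 fold change of the members was 0.04. The 5 genes whose standardized profile over the 8 mice was nearest to the mean profile of the members were Gpr56, an adhesion receptor, Exoc6, Plxnd1, Fcgbp and C1qa, a complement gene of microglia, at root mean square differences of 0.188 to 0.287 SD units.

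Compared per length, the members covered a wide range of levels. The means over the 8 mice in the deposited FPKM (fragments scaled to transcript length and library size) were 1138 ± 95.6 (SD, n = 8) for Glul, 666 ± 122 for Apoe, 374 ± 60.4 for Clu, 335 ± 35.2 for Dkk3, 76.3 ± 8.53 for Vim, 48.2 ± 3.98 for Abca8a, 33.8 ± 2.10 for Aqp4, 22.9 ± 1.46 for Kcnj10, 8.17 ± 0.503 for Sox9 and 3.55 ± 0.541 for Gfap. Each neighbouring pair stood in this order in 8 of 8 mice. The ranges of Apoe and Clu, and those of Clu and Dkk3, overlapped across mice, and Clu and Dkk3 lay closest, at a mean ratio of 1.11 ± 0.0889 (SD, n = 8). On the length of all annotated exons in place of the deposited lengths, Dkk3 moved ahead of Clu and Abca8a ahead of Vim, so the order within these pairs depends on the transcript used. By CPM over all genes tested, Glul ranked 11th, Dkk3 56th, Apoe 87th and Clu 120th, and Gfap ranked 10240th.

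In GRCm38, Glul (chromosome 1, 153899944 to 153909723) and Kcnj10 (chromosome 1, 172341210 to 172374085) share a chromosome, as do Apoe (chromosome 7, 19696109 to 19699188) and Dkk3 (chromosome 7, 112116017 to 112159057). Abca8a (110025634 to 110095978), Gfap (102887336 to 102900912) and Sox9 (112782224 to 112787760) are on chromosome 11, Vim on chromosome 2 (13573927 to 13582826) and Clu on chromosome 14 (65968483 to 65981547). Aqp4 is on chromosome 18 (15389496 to 15410982). All 10 are annotated as protein-coding.

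Beyond the 10 members, 28 other genes of Müller glia gave no call at FDR 0.05 by edgeR's quasi-likelihood test, with 3 higher and 4 lower at an unadjusted p under 0.05 and a median log2 fold change of -0.04. Over all genes tested, 6.42% were higher and 6.87% lower at that unadjusted p, and these shares also apply to the lists below. DESeq2 and edgeR's likelihood ratio test each called 3 of the 28, and limma-voom and limma-trend none. Beyond this list, DESeq2 called 3.07% of all genes it adjusted and the likelihood ratio test 0.976% of all genes. Car14, a membrane carbonic anhydrase, lay at 82.9, 75.7, 83.7 and 101 CPM in M833, M894, M896 and M898 and at 62.7, 60.0, 61.3 and 68.6 CPM in M893, M901, M902 and M909. The 2 groups of mice did not overlap, and the log2 fold change was -0.44 (SE 0.080, adjusted p = 0.0862, edgeR quasi-likelihood test; adjusted p = 3.51e-05, DESeq2).

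Prdx6, a peroxiredoxin that removes lipid peroxides, lay at 135, 136, 142 and 159 CPM in the controls and at 122, 114, 113 and 118 CPM in the Rbfox2 KD mice, again with no overlap. Its log2 fold change was -0.29 (SE 0.053, adjusted p = 0.0875, edgeR quasi-likelihood test; adjusted p = 0.000182, DESeq2). Hes5, a Notch target, was the only 1 of the 28 whose Rbfox2 KD mice lay wholly above the controls, at 13.4 to 14.6 CPM against 7.77 to 12.3 CPM, with a log2 fold change of 0.50 (SE 0.12, adjusted p = 0.184, edgeR quasi-likelihood test; adjusted p = 0.00544, DESeq2). Without M901 and M902 the values were -0.39 for Car14, -0.26 for Prdx6 and 0.49 for Hes5. The most abundant gene by CPM, Slc38a3, the transporter that releases glutamine, lay at 586 to 667 CPM in the controls and 642 to 691 CPM in the Rbfox2 KD mice (adjusted p = 0.342, edgeR quasi-likelihood test).

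**Figure D4:**
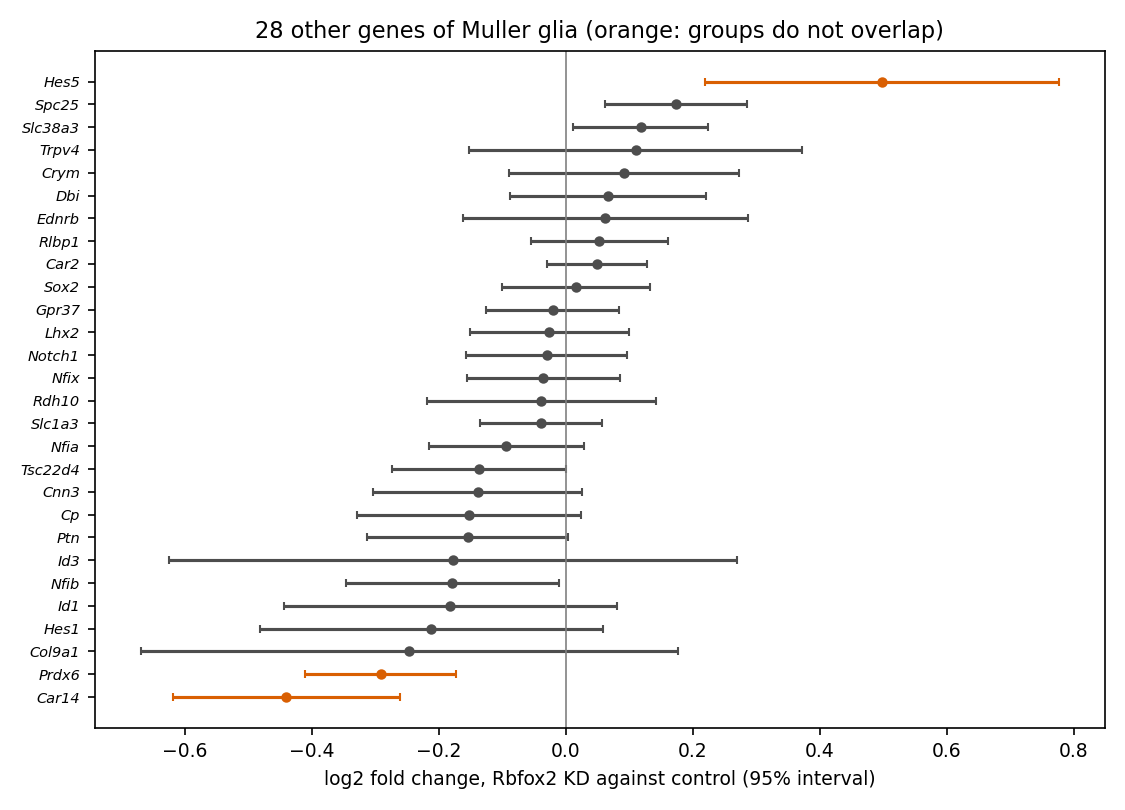
Log2 fold change, Rbfox2 KD against control, of 28 further Müller glia genes with 95% intervals over 8 mice. The 3 genes in orange are those whose groups do not overlap: Car14 and Prdx6 are lower and Hes5 is higher.

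Around Glul, 12 genes of glutamate and glutamine handling held no call at FDR 0.05 (edgeR quasi-likelihood test), with 1 higher and 1 lower at an unadjusted p under 0.05 and a median log2 fold change of -0.0033. DESeq2 and edgeR's likelihood ratio test called 1 of them. It was Slc7a11, the cystine and glutamate exchanger, at 14.7, 14.1, 11.7 and 18.4 CPM in M833, M894, M896 and M898 and 9.37, 6.44, 5.30 and 10.7 CPM in M893, M901, M902 and M909. Every Rbfox2 KD mouse was below every control, with the lowest levels in M902 and M901. The log2 fold change was -0.89 (SE 0.21, adjusted p = 0.176, edgeR quasi-likelihood test; adjusted p = 0.0318, DESeq2), and -0.56 without M901 and M902. The glutamate transporter Slc1a3 of Müller glia had a log2 fold change of -0.04 and Slc1a2, a transporter that photoreceptors and bipolar cells also make, -0.15, both chosen for naming after their values were seen, and neither had an unadjusted p under 0.05.

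Around Kcnj10 and Aqp4, the 19 genes of potassium, water and bicarbonate transport and of the dystrophin complex that anchors both channels gave no call at FDR 0.05 (edgeR quasi-likelihood test), with 1 higher and 4 lower at an unadjusted p under 0.05; DESeq2 called 2, Utrn and Car14. Utrn, utrophin, a relative of dystrophin, lay at 90.4, 92.1, 89.6 and 97.5 CPM in M833, M894, M896 and M898 and at 75.0, 74.9, 68.1 and 81.3 CPM in M893, M901, M902 and M909. The groups did not overlap, at a log2 fold change of -0.30 (SE 0.053, adjusted p = 0.0837, edgeR quasi-likelihood test; adjusted p = 6.54e-05, DESeq2). Slc4a4, a sodium bicarbonate cotransporter, had the value -1.01 (adjusted p = 0.233, edgeR quasi-likelihood test). Its highest levels, 50.2 and 31.3 CPM, were in M898 and M894, and it lay at 12.1 to 19.5 CPM in the other 6. M898 and M894 also held the most pigment and ciliary epithelium markers, and M909, among the other 6, came next at 162 CPM. The part of these markers in the Slc4a4 levels was not tested. Aqp1, the most abundant of the list by CPM, lay at 172 to 204 CPM in the controls and 169 to 189 CPM in the Rbfox2 KD mice.

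Of the 19 other transcription factors and Notch pathway genes read around Sox9, edgeR's quasi-likelihood test called none, and 1 was higher (Hes5) and 2 were lower, Nfib among them, at an unadjusted p under 0.05; DESeq2 called Hes5 alone. Nfib, a nuclear factor I gene, lay at 48.7 to 56.9 CPM in the controls and 43.2 to 54.5 CPM in the Rbfox2 KD mice, with a log2 fold change of -0.18 that was -0.09 without M901 and M902.

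Around Vim and Gfap, 11 genes of intermediate filaments, these 2 included, gave no call at FDR 0.05 by edgeR's quasi-likelihood test or by DESeq2, and 1 at an unadjusted p under 0.05, Des, which lay at 0.479 to 1.57 CPM and was lower. Plec, the most abundant by CPM, which links filaments to the cell membrane, lay at 142 to 157 CPM in the controls and 131 to 148 CPM in the Rbfox2 KD mice. Of 17 genes known from reactive gliosis, none was called by either tool and 1, A2m, was lower at an unadjusted p under 0.05. A2m, a protease inhibitor, reached 37.5 and 32.3 CPM in M898 and M894 and lay at 12.4 to 20.7 CPM in the other 6. Cp, ceruloplasmin, the most abundant of the list by CPM, lay at 215 to 238 CPM in the controls and 173 to 226 CPM in the Rbfox2 KD mice.

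Around Apoe, Clu and Abca8a, 23 other genes of lipid transport were read. None was called at FDR 0.05 by edgeR's quasi-likelihood test and 3 were higher and 1 lower at an unadjusted p under 0.05; DESeq2 called 1, Nr1h3. Nr1h3, the LXR alpha receptor that drives lipid efflux genes, lay at 3.17 to 3.59 CPM in the controls and 4.08 to 4.71 CPM in the Rbfox2 KD mice, with no overlap and a log2 fold change of 0.37 (SE 0.083, adjusted p = 0.156, edgeR quasi-likelihood test; adjusted p = 0.00469, DESeq2). Scarb1, a scavenger receptor for high-density lipoprotein, lay at 141 to 161.3 CPM in the controls and 166 to 173 CPM in the Rbfox2 KD mice, also with no overlap (log2 fold change 0.15, adjusted p = 0.239, edgeR quasi-likelihood test). Pltp, a phospholipid transfer protein, had the value -0.32 (adjusted p = 0.284, edgeR quasi-likelihood test), and Vldlr, the most abundant by CPM, -0.02.

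Around Dkk3, 15 of 16 listed Dickkopf and Wnt pathway genes were in the table, none was called by edgeR's quasi-likelihood test or DESeq2, and 2 were lower at an unadjusted p under 0.05. Fzd4, the receptor of norrin, lay at 16.8 to 21.9 CPM in the controls and 15.1 to 17.5 CPM in the Rbfox2 KD mice. Sfrp1, a secreted Wnt antagonist, was highest in M898 and M894, at 21.7 and 13.1 CPM, and lay at 3.60 to 7.89 CPM in the other 6. Lrp6, the most abundant by CPM, lay at 80.2 to 88.3 CPM in the controls and 74.4 to 87.8 CPM in the Rbfox2 KD mice.

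Markers of other retinal and ocular cells were read beside the members. The 8 astrocyte markers, none with an unadjusted p under 0.05, summed to 645 to 691 CPM in the controls and 530 to 661 CPM in the Rbfox2 KD mice, most of it Slc1a2. Photoreceptors and bipolar cells also make Slc1a2, so this sum does not measure astrocytes alone. Gja1, another of the 8, was highest in M898 and M894, at 94.8 and 59.7 CPM, and lowest in M901, at 2.67 CPM. The 10 microglia markers summed to 76.8 to 85.1 CPM in the controls and to 79.9, 70.8, 66.5 and 83.1 CPM in M893, M901, M902 and M909. M901 and M902, the 2 libraries low in Apoe and Vim, were thus the lowest in microglial genes, but not in these alone. They were also the lowest 2 in the other Müller glia genes, at 3236 and 3258 CPM, and in the lens markers, at 34.3 and 37.9 CPM. The same held for the endothelial and pericyte markers, at 237 and 227 CPM. For the astrocyte markers M902 and M893 were lowest, and for the pigment and ciliary epithelium markers M901 and M896. The 8 endothelial and pericyte markers summed to 249.3 to 279 CPM in the controls and 227 to 293 CPM in the Rbfox2 KD mice, most of it Kdr; their median log2 fold change was -0.25, with 6 of 8 lower, 2 of them (Rgs5 and Pecam1) at an unadjusted p under 0.05, and DESeq2 called 1, Rgs5. The 11 pigment and ciliary epithelium markers had a median log2 fold change of -0.98, and -0.11 without M901 and M902. Of these 11, 10 were lower, 3 at an unadjusted p under 0.05. The 6 surface epithelium markers tested were all higher, 4 at an unadjusted p under 0.05. Their median was 2.98, and 1.04 without M898 and M909. edgeR's quasi-likelihood test called none of either list, and DESeq2 called 1, a surface epithelium marker. The 8 lens markers summed to 38.3 to 50.1 CPM in the controls and 34.3 to 43.8 CPM in the Rbfox2 KD mice. No list had a defining gene at 0 in every mouse, and Crygs of the lens list was at 0 in M894. The 8 rod markers summed to 61966 to 66660 CPM in the controls and 64304 to 69893 CPM in the Rbfox2 KD mice, highest in M902; 7 of the 8 were higher, 3 of them (Gnat1, Pde6b and Sag) at an unadjusted p under 0.05 and called by DESeq2, and none was called by edgeR's quasi-likelihood test. The 6 cone markers summed to 922 to 923 CPM in the controls and 983 to 1114 CPM in the Rbfox2 KD mice, with no overlap; 2 were higher and 1 lower at an unadjusted p under 0.05, and DESeq2 called 1, Opn1sw. The part of these cells in the member differences was not tested.

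**Figure D5:**
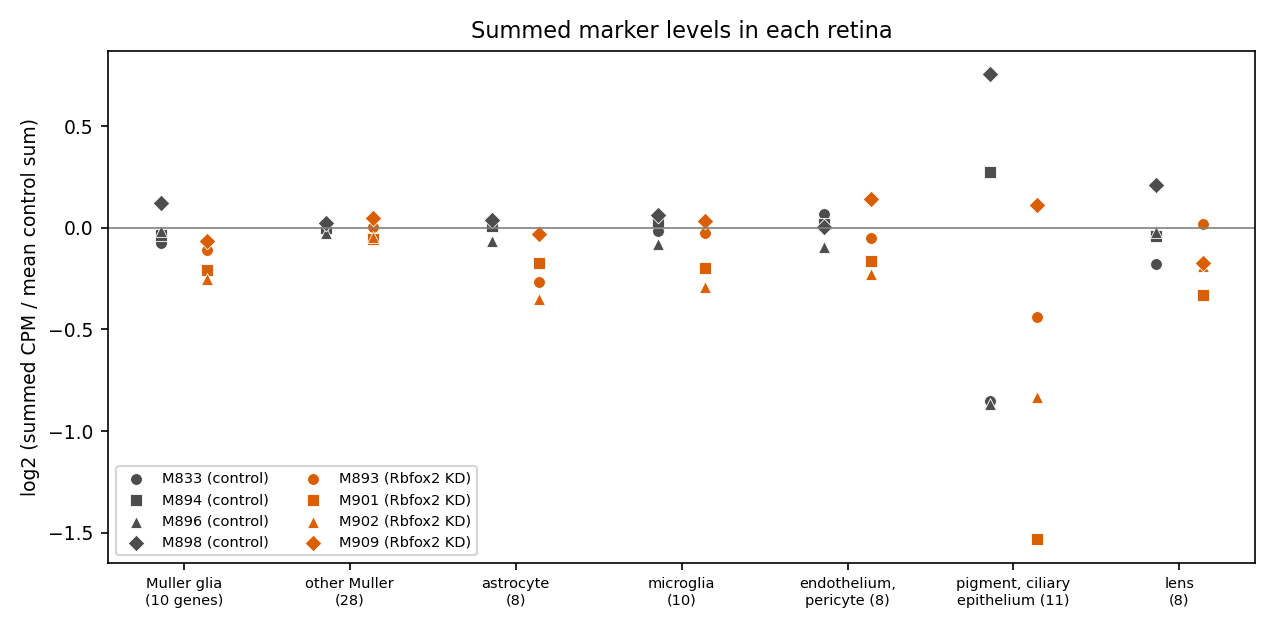
Summed CPM of 7 marker lists in each retina, as log2 over the mean of the control sums, with 1 symbol per mouse and the number of genes in parentheses. The pigment and ciliary epithelium markers spread widest, with M898 highest and M901 lowest. M901 and M902 are the lowest for the 10 Müller glia genes, the other Müller glia genes, and the microglia, endothelial and pericyte, and lens markers.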

How the data were processed

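Total RNA of whole retinas was prepared as poly(A)-selected libraries. According to the labels and the study's methods, the authors aligned paired reads to mm10 with STAR and derived gene counts from uniquely mapped fragments with HTSeq; the strand setting is not given in the sources used here. The deposited table holds raw counts and FPKM per mouse, both used here, and the authors' normalized values and comparison statistics, which were not used. Counts were filtered with filterByExpr (minimum count 10), TMM-normalized and fitted with the quasi-likelihood test of edgeR 4.0.16 in R 4.3.3, with no covariate and Benjamini-Hochberg adjustment over all 16797 genes tested. CPM values are TMM-scaled, and 95% intervals use the fit's t quantile. Single genes were also tested by exact permutation. The p-values set the difference between groups against the spread between mice. Named genes were all 10 members, Rbfox2, up to 3 genes per list with the lowest unadjusted p under 0.05, its most abundant gene, and the 5 nearest profiles; Slc1a2, Slc1a3, Xist and the genes named among markers of other cells were added after their values were seen. A few items that this rule names are not reported here. The members and lists were chosen with earlier results of these data known. Other fits tried used edgeR's likelihood ratio test, DESeq2 1.42.0, limma 3.58.1 (voom and trend), other normalizations and filters, leaving out mice, and 1 surrogate variable from sva 3.50.0; leaving out M898 and M909 together was added after seeing the data. The fits were tested on simulated data. No 2 libraries agreed within sampling noise (chi-square per gene at least 31.5). Promoter sequences are from RefSeq, which matched 6 of the 10 members; there was no entry for Aqp4, Sox9, Dkk3 or Clu. Gene coordinates and exon lengths are from GENCODE on GRCm38.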

Additional observations from a re-analysis of the deposited data

Results flagged for a closer look

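In the 20 sets of 4 mice that the 10 genes and 2 groups make, 2 had a mouse whose gap to its nearest neighbor took up more of the set's range than Dixon's 95% limit for 4 values, where chance gives about 1. Vim lay at 166.9 CPM in control M898, with a gap of 0.885 of the range. Clu lay at 563 CPM in Rbfox2 KD mouse M902, with a gap of 0.899 of the range. M898 held the most pigment and ciliary epithelium markers, and M902 high Xist. M894, next in these markers, held 140.8 CPM of Vim, near the 138.2 and 141.5 CPM of M833 and M896. M901, also with high Xist, held 635 CPM of Clu, near the 643 and 639 CPM of M893 and M909. The part of these markers or of Xist in the Vim and Clu values was not tested.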

How the results depend on the processing

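Glul kept a negative log2 fold change in all 20 alternatives run and passed FDR 0.05 in DESeq2 alone (-0.17). Because its groups did not overlap, leaving out mice could hardly turn that sign, and the other fits used the same libraries. The number of genes called at FDR 0.05, 11 in the main test, was 465 with DESeq2, 164 with edgeR's likelihood ratio test, 5 with 1 surrogate variable, 4 without M898 and M909 and 1 without M901 and M902; leaving out 1 mouse at a time gave 5 to 35, with 35 without M833, 19 without M894, 6 without M898 and 5 without M893, M896, M901 or M909. DESeq2 called 1 member. The median of the members, -0.07, was 0.029 with 1 surrogate variable and 0.040 without M901 and M902, and stayed between -0.10 and -0.03 when 1 mouse was left out. With 1 surrogate variable Sox9 (0.030), Vim (0.0057) and Apoe (0.124) turned positive, as did Sox9 (0.026) and Apoe (0.070) without M901 and M902. Kcnj10 turned to -0.0098 with library size alone, -0.00062 with upper-quartile normalization and -0.0049 without M898 and M909, where Aqp4 was -0.018 and Sox9 0.033. Leaving out 1 mouse at a time moved Kcnj10 between -0.034 and 0.052, Sox9 between -0.037 and 0.038, and Aqp4 between -0.00039 and 0.073. The ratio of Glul to Gfap, 320 by FPKM, was 419 per kilobase of annotated exon. The causes of these changes were not tested. Xist was high in M901 and M902, both Rbfox2 KD, and low in M893, M909 and all controls. No control had high Xist, so the groups cannot be compared among mice with high Xist. The fit without M901 and M902 compares the groups among mice with low Xist alone.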
